A study of Mus musculus with 6 samples.

Results

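Transcripts of 9 genes of the osteoblast lineage and of bone mineralization were followed in the mouse mast cell line MC/9, out of 49568 genes in the count table. The genes were given by name: Runx2, Sp7, Alpl, Bglap, Bglap2, Ibsp, Spp1, Phex and Dmp1, and each had a row. The 3 rPTH libraries came from MC/9 cells kept in culture with 7F2, a mouse osteoblast line, and exposed to rPTH at 10 nM for 24 h. The 3 control libraries are MC/9 cells labelled as given no treatment. The labels do not say whether control cells had been grown on 7F2 cells, nor what rPTH stands for, which is taken here to be parathyroid hormone. Both lines came from a public cell bank, and the mast cells were collected after the co-culture by a step that the labels do not describe. All samples are of 1 mast cell line, and nothing in the labels says that the libraries of a group came from separate cultures, so p-values measure only the spread between these libraries.

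Osteoblasts are the cells that lay down bone matrix. The transcription factor Runx2 commits mesenchymal precursors to this lineage, and Sp7 (osterix) acts after it. Cells of the lineage then make alkaline phosphatase (Alpl), which frees phosphate for mineral, and the matrix proteins bone sialoprotein (Ibsp), osteopontin (Spp1) and osteocalcin (Bglap, Bglap2). Osteocytes, the cells buried in the matrix, make Dmp1, and both cell types make the phosphate-regulating peptidase Phex. Parathyroid hormone acts on osteoblasts through the receptor Pth1r. Osteopontin is not restricted to bone, since macrophages and mast cells are known to make it too.

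Total counts were 30623648 to 33577977 in the rPTH libraries and 22282095 to 24993606 in the controls. Levels are CPM, the counts of a gene as a share of all counts in its library, scaled by TMM factors, which were 1.03 to 1.06 in 5 libraries and 0.810 in control 1. Control 1 stood apart in composition, with 123074 CPM in processed pseudogenes, before TMM scaling, against 70978 to 98446 CPM in the others. The cells carried the markers of their label: mast cell markers summed to 7463 ± 988 CPM in rPTH libraries and 8461 ± 1004 CPM in controls (SD, n = 3 each). Markers of stromal cells, the class to which 7F2 belongs, summed to 6118, 4697 and 4980 CPM in rPTH 1, 2 and 3, against 3404, 4424 and 4068 CPM in control 1, 2 and 3. Stromal transcripts were thus present in every library, and by this sum all 3 rPTH libraries lay above all 3 controls. The markers did not share 1 pattern. Igfbp5, the largest part of the sum, had 1636, 1841 and 1981 CPM in rPTH 1, 2 and 3. In control 1, 2 and 3 Igfbp5 had 1006, 2054 and 1785 CPM, lowest in control 1, while Bgn had 576, 410 and 414 CPM, highest in control 1.

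Of the 9 genes, 5 were high enough to test: Runx2, Sp7, Alpl, Spp1 and Phex. The filter asked for about 10 counts in at least 3 libraries. Runx2, Alpl, Spp1 and Phex met that level in all 3 libraries of both groups, but Sp7 met it in 3 rPTH libraries and only 2 controls, so its place among tested genes depended on the rPTH group. The other 4, Bglap, Bglap2, Ibsp and Dmp1, had at most 5 counts in any library. Both transcription factors, Alpl, Spp1 and Phex were thus measurable. Osteocalcin, bone sialoprotein and Dmp1, which mark mature osteoblasts and osteocytes, were at or near the limit of detection in counts. Counts also depend on transcript length.

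**Figure D1:**
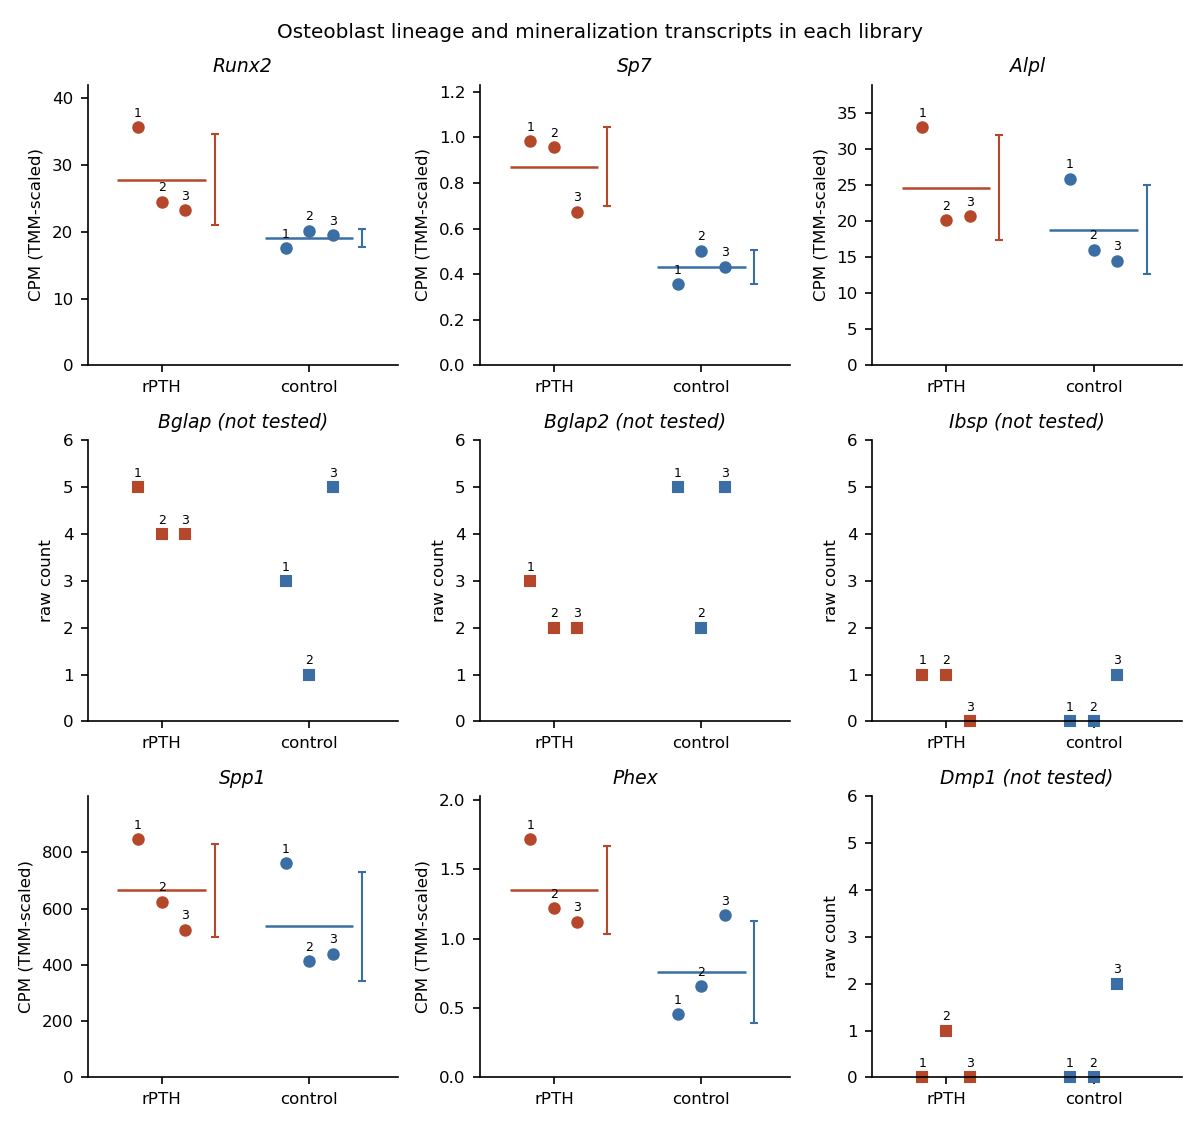
Level of each of the 9 genes in the 3 rPTH (red) and 3 control (blue) libraries, numbered by replicate. Circles give TMM-scaled CPM with the group mean (line) and SD (bar) for the 5 genes tested; squares give raw counts for the 4 genes not tested, none above 5. The rPTH circles of Runx2 and Sp7 all lie above the control circles.

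Set per kilobase of exon (GENCODE M21 on GRCm38), so that genes can be compared, Spp1 stood far above the rest, at 404 ± 99.9 CPM per kb in rPTH libraries and 326 ± 118 in controls (SD, n = 3 each). Among 16227 tested genes with a known length it ranked 244th by this level. Alpl followed at 6.10 ± 1.80 and 4.67 ± 1.53 CPM per kb, and then Runx2 at 3.14 ± 0.770 and 2.16 ± 0.153 CPM per kb, in rPTH libraries and controls. Sp7 and Phex did not differ beyond their spread in either group, at 0.256 ± 0.0507 and 0.215 ± 0.0505 CPM per kb in rPTH libraries and 0.127 ± 0.0219 and 0.121 ± 0.0583 in controls. The order of these 5 genes was the same in both groups. Bglap (0.209 ± 0.0418 in rPTH libraries, 0.220 ± 0.145 in controls) and Bglap2 (0.148 ± 0.0468 in rPTH libraries, 0.387 ± 0.197 in controls) are given on the same scale but rest on at most 5 counts in a library. The means of Bglap and Bglap2 were thus below those of Sp7 and Phex in rPTH libraries and above both in controls. For Bglap the SD ranges overlapped those of Sp7 and Phex in each group. The filter acts on counts, and Bglap and Bglap2 have only 618 and 471 exon bases against 3398 for Sp7 and 6291 for Phex.

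The promoters of Runx2, Spp1 and Bglap are shown because Runx2 is known to bind the core letters AACCACA, including in its own promoter. Runx2 and Spp1 are the tested genes with a match, and Bglap, with at most 5 counts in a library, is a textbook Runx2 target. The 3 were picked with their matches known, so the choice shows no relation between matches and levels. Each window, from RefSeq on GRCm38.p6, runs from 250 bases before to 50 bases after an annotated start, and capitals mark matches to AACCACA. Runx2 is chr17:44814578-44814877 (minus strand), Spp1 is chr5:104434861-104435160 (plus strand) and Bglap is chr3:88384417-88384716 (minus strand).
Runx2: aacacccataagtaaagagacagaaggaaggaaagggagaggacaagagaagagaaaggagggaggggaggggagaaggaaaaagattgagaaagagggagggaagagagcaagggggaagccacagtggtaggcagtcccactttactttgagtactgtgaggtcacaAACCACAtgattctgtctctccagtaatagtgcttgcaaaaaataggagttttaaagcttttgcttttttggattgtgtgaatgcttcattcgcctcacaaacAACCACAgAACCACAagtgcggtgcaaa
Spp1: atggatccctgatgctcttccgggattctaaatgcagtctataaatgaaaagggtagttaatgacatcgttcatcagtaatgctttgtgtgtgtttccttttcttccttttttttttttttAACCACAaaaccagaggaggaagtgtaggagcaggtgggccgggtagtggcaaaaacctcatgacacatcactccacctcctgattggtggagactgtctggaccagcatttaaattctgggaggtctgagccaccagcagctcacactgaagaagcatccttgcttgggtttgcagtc
Bglap: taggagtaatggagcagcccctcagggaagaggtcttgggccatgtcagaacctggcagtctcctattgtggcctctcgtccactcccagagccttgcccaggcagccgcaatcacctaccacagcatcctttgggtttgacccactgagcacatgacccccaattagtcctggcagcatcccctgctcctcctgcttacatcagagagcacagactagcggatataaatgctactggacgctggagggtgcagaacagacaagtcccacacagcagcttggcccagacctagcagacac

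With the start as position 0, the Runx2 window held matches at -81, 22 and 30, the Spp1 window 1 match at -129, and the Bglap window none. The windows were searched for exact AACCACA on both strands, so near matches were not counted. The Bglap window holds taccaca, which differs from AACCACA in its opening letter only. RefSeq windows were found for 7 of the 9 genes, all but Sp7 and Bglap2, 10 windows in all, and 3 of these held a match. The windows of Alpl and Phex, both tested genes, and of Ibsp held none. Beside Runx2 and Spp1 this was the second annotated start of Dmp1, a gene with 3 counts over all libraries, at -165. Over all 32851 windows 5.27% held at least 1 match, and 3 windows (0.00913%) held 3 or more. A match here is a description of letters and says nothing of binding in these cells.

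**Figure D2:**
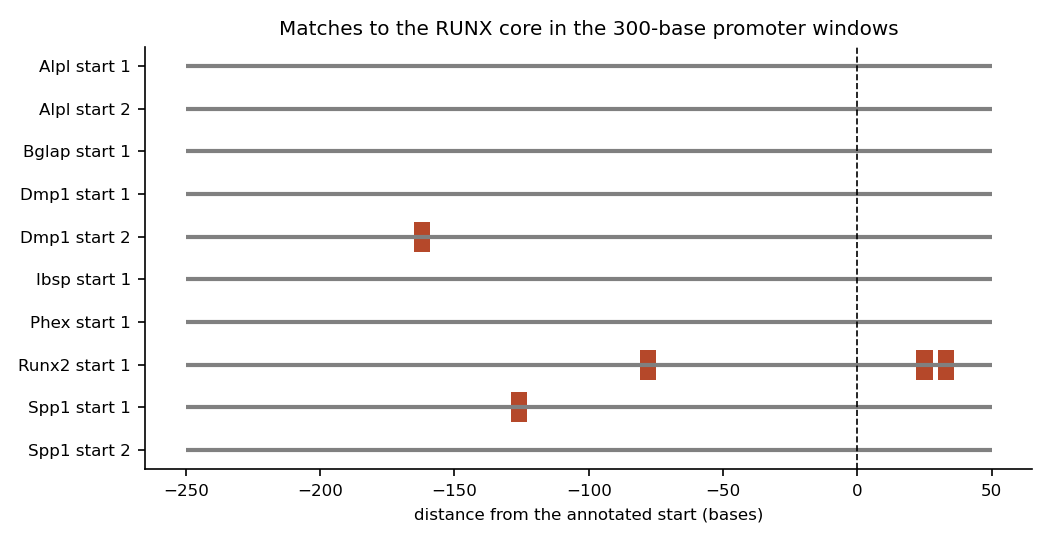
Position of AACCACA matches on either strand (red blocks) in the 10 RefSeq windows of the 7 genes that had one, as distance in bases from the annotated start (dashed line). Runx2 holds 3 matches, and the first start of Spp1 and the second start of Dmp1 hold 1 each.

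The main comparison was rPTH against control. Across 16696 tested genes, edgeR's quasi-likelihood test with Benjamini-Hochberg adjustment called 0 genes (0%) at an adjusted p under 0.05, and it called 0 of the 9 genes here. The smallest adjusted p of any gene was 0.619, and 1314 genes had an unadjusted p under 0.05. DESeq2 called 5 genes and limma-voom 0, none of them among the 9. An unadjusted p under 0.05 with a higher level in rPTH libraries was reached by 1.98% of all tested genes and by Runx2 and Sp7 among the 5. All 3 rPTH libraries lay above all 3 controls for 8.35% of all tested genes, and again for Runx2 and Sp7 among the 5. Since Sp7 passed the filter through the rPTH group, these counts give no support of their own.

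Runx2 had 35.6, 24.5 and 23.2 CPM in rPTH 1, 2 and 3, against 17.5, 20.1 and 19.5 CPM in control 1, 2 and 3. The groups did not overlap, the controls lay close together, and rPTH 1 was well above the other libraries. The log2 fold change was 0.54 ± 0.21 (SE), and edgeR's quasi-likelihood test gave an adjusted p of 0.619 with Benjamini-Hochberg adjustment (0.0363 unadjusted). Without rPTH 1 it was 0.32 (adjusted p = 0.922). Stromal markers were also highest in rPTH 1; their part in the result was not tested, and in bulk RNA more cells of a type and more RNA per cell cannot be told apart.

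Runx2 lies on chromosome 17 from 44495987 to 44814797 (minus strand, GRCm38). On the other strand it overlaps the first part of Supt3, without shared exon bases, and the antisense gene Runx2os1, with 519 shared exon bases. No source used here says whether counting used strand. Runx2os1 had 48 counts over the 6 libraries against 4109 for Runx2. The related factors Runx1 and Runx3, which act in blood cell lineages, were higher per kb: Runx1 had 46.6 CPM per kb in rPTH libraries and 48.1 in controls, and Runx3 had 8.34 and 9.16. Their levels did not pass the test, with log2 fold changes of -0.04 ± 0.25 (Runx1) and -0.14 ± 0.15 (Runx3). Runx1 and Runx3 were looked up after the values of Runx2 were seen.

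Sp7, whose loss stops osteoblast formation in mice, lies on chromosome 15 from 102356606 to 102367182 (minus strand, GRCm38). It was scarce, with 31, 33 and 24 counts in rPTH 1, 2 and 3 and 7, 13 and 10 counts in control 1, 2 and 3. That is 0.984, 0.957 and 0.673 CPM in rPTH libraries against 0.355, 0.503 and 0.433 CPM in controls. The groups did not overlap, and rPTH 1 and rPTH 2 were alike. The log2 fold change was 1.00 ± 0.36 (SE), with an adjusted p of 0.619 from edgeR (0.0271 unadjusted).

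Alpl, the enzyme that removes the mineral inhibitor pyrophosphate, is encoded on chromosome 4 from 137741733 to 137796384 (minus strand, GRCm38). It had 33.01, 20.1 and 20.7 CPM in rPTH 1, 2 and 3, against 25.9, 16.03 and 14.5 CPM in control 1, 2 and 3. The groups overlapped through control 1, which lay above rPTH 2 and rPTH 3. Its log2 fold change was 0.39 ± 0.30 (SE; edgeR adjusted p = 0.649). It was 0.12 when rPTH 1 was left out (adjusted p = 0.941) and 0.67 when control 1 was (0.400). With library totals in place of TMM factors the Alpl groups no longer overlapped, by a narrow margin. They ran from 21.08 to 34.002 CPM in rPTH libraries and from 15.1 to 20.97 CPM in controls. The share of all tested genes without overlap was not computed for library totals.

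Spp1 showed the same pattern. It had 846, 625 and 525 CPM in rPTH 1, 2 and 3, against 761, 412 and 439 CPM in control 1, 2 and 3. Control 1 was again the highest control, above rPTH 2 and rPTH 3. The log2 fold change was 0.31 ± 0.32 (SE; edgeR adjusted p = 0.704), 0.63 without control 1 (adjusted p = 0.400), 0.10 without rPTH 1 (0.957) and 0.14 without control 2 (0.851). At these counts, 10154 to 26664 per library, counting error was small beside the spread between libraries. Spp1 shares 309 exon bases with Gm42793 on the same strand of chromosome 5, but Gm42793 had only 15 counts over the 6 libraries.

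Phex, the peptidase whose loss causes X-linked low phosphate in blood, had 54, 42 and 40 counts in rPTH 1, 2 and 3, and 9, 17 and 27 counts in control 1, 2 and 3. Scaled, these were 1.71, 1.22 and 1.122 CPM in rPTH libraries against 0.456, 0.658 and 1.17 CPM in controls. The groups overlapped by 1 pair, control 3 lying just above rPTH 3. The log2 fold change was 0.82 ± 0.43 (SE; edgeR adjusted p = 0.628), 1.33 without control 3 (adjusted p = 0.469) and 0.55 without control 1 (0.585). The processed pseudogene Gm15172, which lies within Phex on the same strand of chromosome X with no shared exon bases, had 190 counts in control 3 against 37 to 49 in the other libraries.

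**Figure D3:**
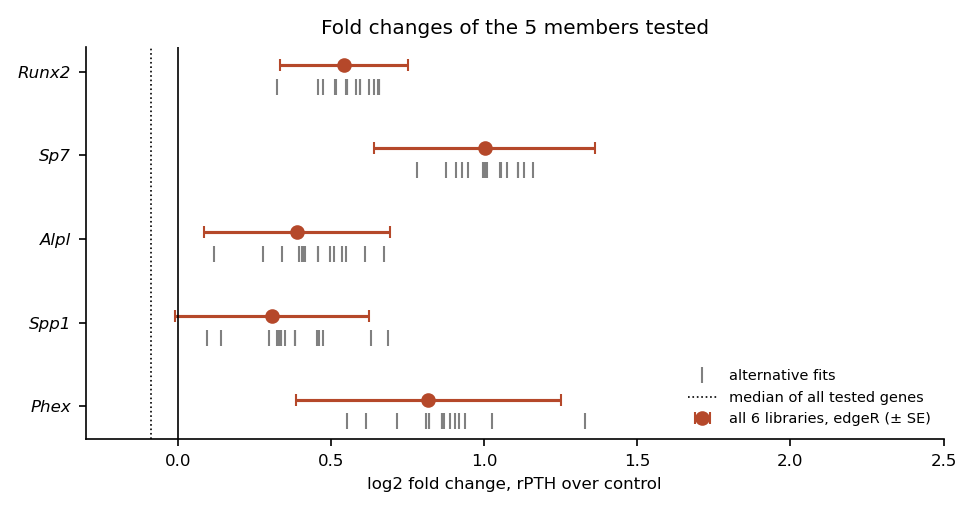
Log2 fold change, rPTH over control, of the 5 tested genes in the fit of all 6 libraries (red, ± SE), with the values under the alternative fits as grey ticks and the median of all tested genes (-0.09) as a dotted line. All points and ticks lie above 0, while the SE bar of Spp1 crosses it; the ticks of Alpl run from 0.12 to 0.67, those of Spp1 from 0.10 to 0.69 and those of Phex from 0.55 to 1.33.

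The fitted log2 fold changes of the 5 were positive and had a median of 0.54. Over all 16696 genes tested the median was -0.09 and 6930 were positive. Since Sp7 passed the filter through the rPTH group, these signs give no support of their own. In the authors' deposited table the log2 fold changes were 0.56 (Runx2), 0.77 (Sp7), 0.41 (Alpl), 0.35 (Spp1) and 0.66 (Phex). The adjusted p in the authors' deposited table ran from 0.273 for Runx2 to 0.681 for Spp1, so none passed there either. For the other 4 genes the authors' deposited table gives log2 fold changes of 0.01 (Bglap), -0.46 (Bglap2), 0.03 (Ibsp) and -0.07 (Dmp1), with no adjusted p.

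The 4 genes under the filter are given as counts. Bglap had 5, 4 and 4 counts in rPTH 1, 2 and 3, and 3, 1 and 5 in control 1, 2 and 3. Bglap2 had 3, 2 and 2 counts in rPTH libraries and 5, 2 and 5 in controls. Ibsp, which seeds hydroxyapatite crystals, had 1, 1 and 0 counts in rPTH libraries and 0, 0 and 1 in controls. Dmp1 had 0, 1 and 0 counts in rPTH libraries and 0, 0 and 2 in controls. A count of 0 allows up to 3 counts in a library, which is 0.0893 to 0.0980 CPM, before TMM scaling, in rPTH libraries and 0.120 to 0.135 CPM in controls; such limits cover counting error only. These 4 genes were not tested. Bglap2 had 7 counts over the rPTH libraries and 12 over the smaller control libraries, the opposite direction to the 5 tested genes.

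Ibsp, Dmp1 and Spp1 encode secreted acidic phosphoproteins of 1 gene family and lie in 1 cluster on chromosome 5 (GRCm38, plus strand), Dmp1 from 104202613 to 104214102, Ibsp from 104299171 to 104311469 and Spp1 from 104435118 to 104441050. In these libraries Spp1 had 102737 counts in all, while Ibsp and Dmp1 had 3 each. Of the other family members in the cluster, Mepe, which lies between Ibsp and Spp1, had 4 counts in all, and Dspp, which lies before Dmp1, had 11.

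The osteocalcin genes are near-identical copies on chromosome 3 (minus strand, GRCm38), Bglap from 88383501 to 88384464 and Bglap2 from 88377736 to 88378699. Their coding sequences (GENCODE M21, without the stop codon) are shown because counts of such alike copies are uncertain. Capitals mark the 4 of 285 bases that differ.
Bglap: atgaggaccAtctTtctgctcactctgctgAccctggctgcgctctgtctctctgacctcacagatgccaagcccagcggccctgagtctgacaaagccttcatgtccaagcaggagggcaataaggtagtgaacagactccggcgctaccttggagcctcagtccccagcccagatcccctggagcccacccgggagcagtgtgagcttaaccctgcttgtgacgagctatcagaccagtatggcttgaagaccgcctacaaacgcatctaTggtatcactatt
Bglap2: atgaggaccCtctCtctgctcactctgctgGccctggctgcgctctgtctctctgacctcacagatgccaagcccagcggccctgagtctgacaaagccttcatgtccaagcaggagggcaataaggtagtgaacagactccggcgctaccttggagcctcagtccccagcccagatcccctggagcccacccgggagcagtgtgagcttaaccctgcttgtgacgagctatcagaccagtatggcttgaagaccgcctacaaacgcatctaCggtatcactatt

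The coding sequences were 98.6% identical, and 292 of 391 windows of 50 bases in the Bglap transcript (74.7%) occurred letter for letter in that of Bglap2. Another copy, Bglap3, was 95.4% identical to Bglap in its coding sequence and had 8 counts over the 6 libraries. No source used here says how reads that match several copies were counted. The osteocalcin copies together were scarce, with 22 (Bglap), 19 (Bglap2) and 8 (Bglap3) counts over all libraries.

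Other genes of the same biology were read from lists of related genes. Of 16 other transcription factors linked to the osteoblast lineage, not all of them specific to it, 12 were tested. Among these 12, 7 had positive and 5 negative log2 fold changes (median 0.20), and none passed over all genes. The 3 most abundant were Ctnnb1, the Wnt effector beta-catenin, with 318 ± 12.6 CPM in rPTH libraries and 268 ± 36.2 CPM in controls, Atf4, a stress-response factor needed for osteoblast function, with 232 ± 13.0 and 310 ± 104 CPM, and Cbfb, the DNA-binding partner of Runx proteins, with 119 ± 6.46 and 105 ± 26.0 CPM (SD, n = 3 each). These 3 are expressed in many cell types. For Ctnnb1 all 3 rPTH libraries lay above the controls and for Atf4 all 3 lay below, where control 1 had 431 CPM against 244 and 257 CPM in control 2 and 3. Of the 12 tested genes 4 lay above and 1 below in this way, against 1394 and 1412 of all 16696 tested genes.

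Of 16 genes that control mineral or phosphate 10 were tested; 9 had positive and 1 negative log2 fold changes (median 0.23), and none passed. The phosphate carrier Slc20a1 had 114 ± 8.68 CPM in rPTH libraries and 117 ± 7.36 CPM in controls (SD, n = 3 each). Ank, which moves pyrophosphate out of cells, had 78.7 ± 6.57 and 70.1 ± 2.89 CPM, and the procollagen peptidase Bmp1 had 38.0 ± 5.10 and 31.5 ± 4.15 CPM. The osteocyte hormones Fgf23 and Sost had 6 and 2 counts over all 6 libraries; they were picked out after their values were seen, and the untested genes of this list had at most 5 counts in a library.

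Stromal markers were read because RNA of 7F2 cells could be in the mast cell harvest. Of 30 markers 26 were tested; 24 had positive and 2 negative log2 fold changes (median 0.54), and none passed. Over all tested genes 41.5% had a positive value. For 12 of the 26 markers the lowest rPTH library exceeded the highest control, against 8.35% of all tested genes. Igfbp5, a growth factor binding protein, had 1820 ± 173 CPM in rPTH libraries and 1615 ± 544 CPM in controls (SD, n = 3 each). Fibronectin (Fn1) had 759 ± 233 and 426 ± 158 CPM, and the proteoglycan Bgn had 634 ± 158 and 467 ± 94.7 CPM. The summed level was 5265 ± 752 CPM in rPTH libraries and 3965 ± 518 CPM in controls, 1.33 times as high. Igfbp5 was the largest part of this sum in both groups. The ratio of means, rPTH over control, was 1.13 for Igfbp5, 1.78 for Fn1 and 1.36 for Bgn, so the summed ratio depends on which markers weigh most. No marker of the list was at 0 in all libraries; the lowest were Omd with 3 counts, Lum with 5 and Thy1 with 6 over the 6 libraries, and Dcn had 13. Their part in the levels of Runx2, Sp7, Alpl, Spp1 and Phex was not tested.

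**Figure D4:**
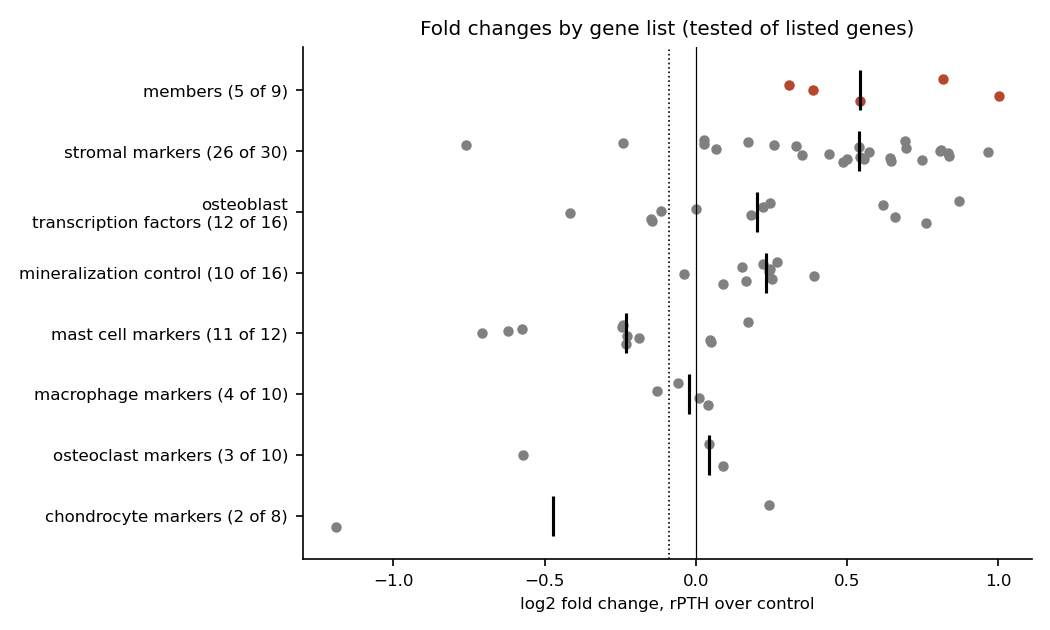
Log2 fold change, rPTH over control, of every tested gene in each list (points), with the list's median (black bar) and the median of all tested genes, -0.09 (dotted line); labels give tested of listed genes. The 5 tested members and the 26 stromal markers both have a median of 0.54, while the 11 tested mast cell markers have a median of -0.23.

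Set against the stromal marker sum of the same library, Runx2 had 0.582, 0.521 and 0.466 CPM per 100 stromal CPM in rPTH 1, 2 and 3, against 0.515, 0.455 and 0.478 in control 1, 2 and 3. The groups overlapped on this scale, and the ratio of the means, rPTH over control, was 1.08 where that of the plain level was 1.46. Spp1 had 13.8, 13.3 and 10.5 CPM per 100 stromal CPM in rPTH libraries against 22.4, 9.31 and 10.8 in controls, and Alpl had 0.540, 0.428 and 0.416 against 0.761, 0.362 and 0.357. Control 1 was the highest of all libraries for both genes. Sp7 had 0.0161, 0.0204 and 0.0135 in rPTH libraries against 0.0104, 0.0114 and 0.0106 in controls, and was the only one of the 5 whose groups did not overlap on this scale. The share of all tested genes without overlap was not computed on this scale. Sp7 also passed the filter through the rPTH group, so its lack of overlap gives no support of its own. Phex had 0.0280, 0.0259 and 0.0225 in rPTH libraries against 0.0134, 0.0149 and 0.0287 in controls. The ratios of the means, rPTH over control, were 1.54 for Sp7, 1.34 for Phex, 0.935 for Alpl and 0.887 for Spp1. These ratios are descriptions with no test, and Igfbp5 is the largest part of the stromal sum they are set against. Igfbp5 was lowest in control 1 (1006 CPM) and highest in control 2 (2054 CPM), where Bgn had 576 and 410 CPM. The ratios therefore depend on which markers weigh most in the sum. Sp7 and Phex rest on 7 to 54 counts per library.

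**Figure D5:**
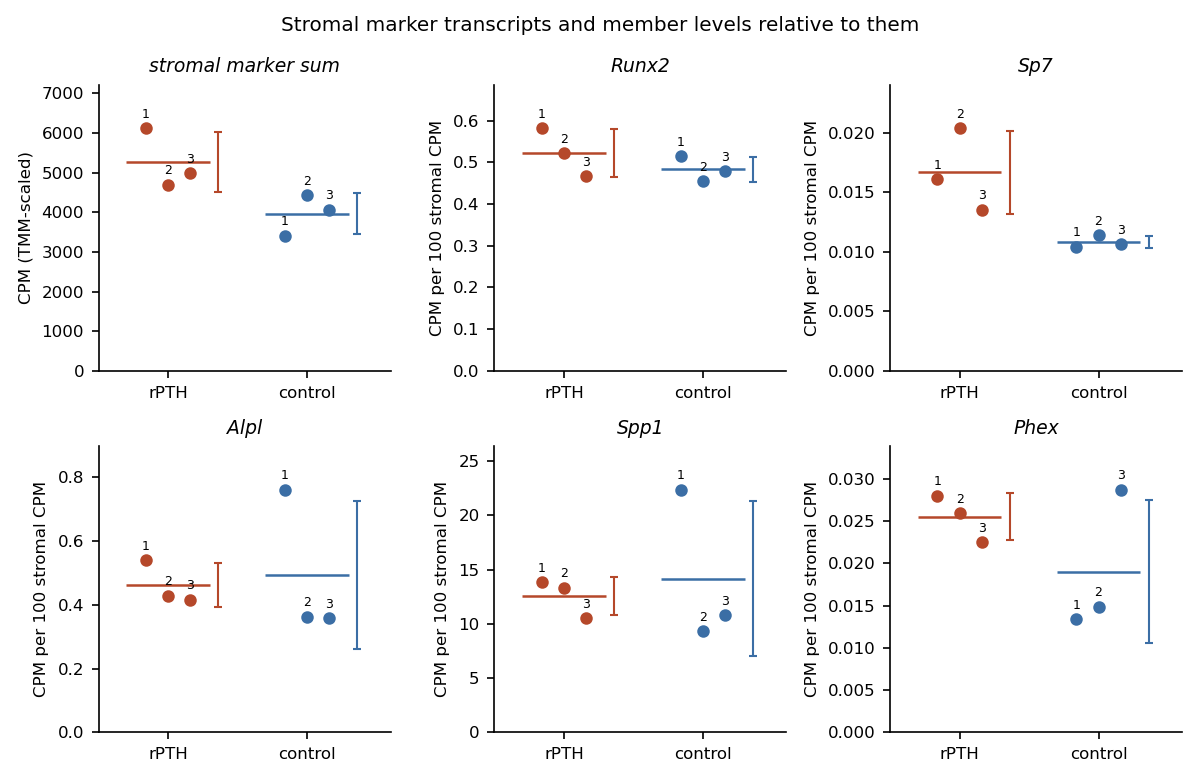
Summed TMM-scaled CPM of the stromal markers (first panel) and the level of each tested gene per 100 CPM of that sum, by library, with group means (lines) and SD (bars), rPTH in red and control in blue. Runx2 groups overlap at 0.455 to 0.582, Sp7 groups do not, and control 1 is the highest point for Alpl and Spp1.

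Markers of other cell types that could be in such cultures were read as well. Of 10 macrophage markers 4 were tested, and the list summed to 6.35 ± 0.535 CPM in rPTH libraries and 6.55 ± 1.08 CPM in controls (SD, n = 3 each). Its most abundant genes were Cd68, with 3.15 ± 0.0684 CPM in rPTH libraries and 3.12 ± 0.366 in controls, Lyz2, with 1.38 ± 0.279 and 1.53 ± 1.09, and Mrc1, with 0.887 ± 0.519 and 0.922 ± 0.0960. Among its untested genes, the complement genes C1qa and C1qc and the receptor Marco were at 0 in all rPTH libraries. They had 2, 4 and 2 counts over the controls. C1qb had 2 counts over the rPTH libraries and 4 over the controls. Cd163 (16 and 7 counts) and Csf1r (42 and 27) went the other way, and the control libraries were smaller. Of 10 osteoclast markers 3 were tested, Nfatc1 (72.7 ± 2.68 CPM in rPTH libraries, 70.6 ± 13.6 in controls), a factor that lymphocytes and mast cells also use, Ctsk (1.89 ± 0.533 and 1.78 ± 0.784) and Mmp9 (0.351 ± 0.165 and 0.525 ± 0.262). The osteoclast fusion gene Ocstamp was at 0 in all 6 libraries.

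Chondrocyte markers had 2 tested of 8. The link protein gene Hapln1 had 53.5 ± 9.58 CPM in rPTH libraries and 45.2 ± 5.24 CPM in controls (SD, n = 3 each). The matrix protein gene Comp had 0.285 ± 0.0992 and 0.657 ± 0.158 CPM, with all 3 rPTH libraries below the controls, on 6 to 19 counts per library. Untested genes differed in direction: over the rPTH libraries and over the controls Matn3 had 23 and 7 counts, Matn1 6 and 0, Col10a1 25 and 7, Acan 7 and 8, and Col9a1 5 and 5. Col2a1, the collagen that defines cartilage, had 0.233 ± 0.143 and 0.286 ± 0.108 CPM and was not tested. Among mast cell markers 11 of 12 were tested; 3 had positive and 8 negative log2 fold changes (median -0.23), and none passed. Cpa3 had 1869 ± 252 CPM in rPTH libraries and 2128 ± 449 CPM in controls, and Fcer1a had 1370 ± 267 and 1605 ± 407 CPM. The factor Gata2 had 933 ± 97.3 and 1106 ± 65.4 CPM. All 3 rPTH libraries lay below the controls for 3 of the 11 (Gata2, Tpsab1 and Tpsb2), and above them for 0. Over all 16696 tested genes 1412 lay below in this way.

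Across the 6 libraries the tested genes followed different patterns. Likeness was measured as the root mean square difference of log2 CPM after each gene was centred on its own mean over the 6 libraries, so that a small value means alike. Alpl and Spp1 were the closest pair of the 5, at 0.12, followed by Runx2 and Sp7 at 0.26, while Spp1 and Phex were the farthest apart at 0.65. Control 1 separated these pairs: on the centred log2 scale it was at 0.31 for Alpl and 0.39 for Spp1, but at -0.38 for Runx2, -0.68 for Sp7 and -0.99 for Phex. Library rPTH 1 was the highest of the 6 for each of the 5 genes, at 0.54 (Spp1) to 0.77 (Phex).

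Among 14522 other genes with a mean of at least 1 CPM, those nearest to Spp1 were the small GTPase gene Rras2 (0.05), Fam46b (0.05) and the RNA-binding protein gene Rbpms (0.06). Rras2 had 25.8, 19.5 and 16.9 CPM in rPTH 1, 2 and 3, against 24.5, 13.9 and 14.2 CPM in control 1, 2 and 3. Those nearest to Runx2 were the cyclin gene Ccnd1 (0.03), the receptor phosphatase gene Ptprk (0.03) and the syndecan gene Sdc3 (0.04). Ccnd1 had 101, 72.6 and 69.0 CPM in rPTH libraries against 52.2, 57.1 and 56.0 CPM in controls. The parathyroid hormone receptor gene Pth1r, which is in the stromal list, had 0.464 ± 0.0938 CPM in rPTH libraries and 0.457 ± 0.0620 CPM in controls (SD, n = 3 each).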

How the data were processed

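RNA sequencing of 6 MC/9 libraries was read from the table of raw counts per gene that the authors deposited. Per the submitters' processing notes, R 3.3.0, DESeq2 1.12.4, featureCounts, Subread 1.5.0p3, STAR 2.5.2b and Trimmomatic 0.36 were used, with no role given, and both mm9 and GRCm38.p5 are named. No source used here gives the annotation or the strand setting. The log2 fold changes with standard errors and the p-values in the authors' deposited table are quoted as theirs; their normalized and rlog tables were not used.

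Genes were tested with edgeR 4.0.16 in R 4.3.3 (robust quasi-likelihood test, TMM factors, filterByExpr with a minimum count of 10, Benjamini-Hochberg over all 16696 genes tested, threshold 0.05); the standard error is the fold change divided by the square root of F. The filter was applied to all libraries jointly. The fit was checked on simulated counts. DESeq2 1.42.0 and limma-voom (limma 3.58.1) were alternatives. CPM in lists and members were summed after TMM scaling. Log2 CPM for likeness used a prior count of 2. No 2 libraries were duplicates: chi-square per degree of freedom ran from 13.3 to 287. The lowest value was for a pair across the groups, rPTH 3 and control 2. Within a group the lowest was 18.5, for rPTH 1 and rPTH 3.

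The members, lists and motif were chosen with earlier results of these data known. Named genes are all 9 members, the 3 most abundant genes of each list, and the 3 genes nearest to each of the 2 most abundant tested members by CPM; other names were added after their values were seen.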

Additional observations from a re-analysis of the deposited data

How the results depend on the processing

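Over 16 alternatives the log2 fold changes of Runx2, Alpl, Spp1 and Phex stayed above 0, as did that of Sp7 over 15 (it did not pass the filter at 1 CPM in 3 libraries), and no member was called in any of them. The number of genes past the threshold was 0 except with DESeq2 (5: Pde8a, Olfr56, Thbs2, Gm11694 and Gm7079) and with control 2 as the only control, assumed to vary like the rPTH libraries (2: Cecr2 and Fgf12), none of them a member and all named after their values were seen. The number with an unadjusted p under 0.05, 1314 here, was 863 with limma-voom, 2377 without the filter on low counts, 525 with the replicate block and 620 among protein-coding genes, the last chosen after seeing the data; leaving out 1 library gave 272 to 2165, the lowest without rPTH 1 and the highest without control 1. Leaving out 1 library moved the log2 fold change of Runx2 from 0.32 to 0.66, of Sp7 from 0.87 to 1.16, of Alpl from 0.12 to 0.67, of Spp1 from 0.10 to 0.63 and of Phex from 0.55 to 1.33. The cause of these shifts was not tested. Library totals in place of TMM moved the median of all tested genes from -0.09 to 0.04, a shift above 0.1, and the members' fold changes moved with it (Runx2 0.65, Spp1 0.48). Deviations of same-numbered libraries from their group means had correlations of -0.13, -0.32 and 0.14 for numbers 1, 2 and 3. With 3 libraries in a group these cannot settle whether the numbers mark pairs. The labels do not say what the numbers mark, so they were not taken as pairs. With the replicate block 0 genes passed and Runx2 had a log2 fold change of 0.52. Few counts limit Sp7 and Phex, and leave Bglap, Bglap2, Ibsp and Dmp1 untested.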
